A study of Bos taurus with 9 samples.

Results

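Ribosome biogenesis and nucleolar genes were followed in cultured bovine nucleus pulposus cells before and during exposure to added salt. The members are 60 gene symbols listed by name for their part in making ribosomes. Of these, 47 had a probe set (a group of short array probes for a transcript) annotated to that symbol alone, out of 9155 genes with such a probe set. Each gene was represented by its probe set with the highest mean over the 9 arrays. The other 13 (POLR1A, NOP58, NPM1, PWP2, WDR36, NOC4L, BOP1, WDR12, RRS1, RPF2, RRP1B, NIP7 and URB2) were not analysed here. All 47 measured members passed the filter on dim probe sets and were tested.

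The cells came from the nucleus pulposus, the gelatinous core of the intervertebral disc, of the tails of young calves, and were grown in DMEM with serum. The study compared groups of cultures, with 3 arrays each: untreated control cells, cells 5 h after salt raised the medium to 500 mOsm/kg, and cells 24 h after. The labels number the cultures 1 to 3 in each group as biological replicates and name no animal for any of them, so a p-value here reflects variation among the cultures as labelled. How long control cells were kept is not labelled, so salt and time in culture cannot be told apart, and both salt times are set against the same controls. The labels state no strain, sex or passage.

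Ribosomes are built in the nucleolus. RNA polymerase I transcribes the precursor of the ribosomal RNAs, small nucleolar RNA-protein particles (snoRNPs) place methyl groups and pseudouridines on it, and a large set of assembly factors cuts, folds and packs it with ribosomal proteins into the small and the large subunit. These factors are not part of the finished ribosome, and as a class they are known to be made in larger amounts in growing cells.

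Arrays with the same replicate number resembled each other. On the leading principal component (47.7% of variance) the arrays numbered 3 scored 50.8 to 68.1 and all the others -42.3 to -18.0. Deviations from the group mean correlated at 0.564 to 0.896 over the 9 same-numbered pairs of arrays, and at -0.78 to 0.545 over the 18 other pairs. Results are therefore also given from a fit with the replicate number as a block, which compares arrays of the same number. The median intensity of an array lay between 67.1 and 84.5. Among nucleus pulposus markers, ACAN read 2139, 1146 and 497 in control (mean 1261) and COL2A1 read 330, 177 and 40.0. Both were lowest on the array numbered 3. Control means of BNIP3, CXCL12 and SLC2A1 were 2832, 4026 and 834. KRT18 was dim at 21.4, and KRT8, KRT19 and NCAM1, at 18.5, 5.20 and 8.70, lay under the filter. SOX9, CD24, CA12 and TBXT were not analysed here.

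After 24 h in salt, the genes of ribosome production stood lower than in control across all roles. The members were chosen with earlier results of these data known, so the counts below describe this list. Of 47 members, 46 had a lower group mean, against 47.2% of all probe sets, and 16 were called lower by limma (adjusted p under 0.05), which is 34.0% against 4.32% of the 18012 probe sets tested. None was called higher, against 4.28% of all probe sets. With each array centred on its median the background was 827 probe sets lower and 503 higher, in place of 779 and 771. The median log2 change of the members was -0.73, with values from -1.50 (GNL3) to 0.48 (HEATR1), and that of all probe sets tested was 0.023. In 36 members all 3 arrays at 24 h lay below all 3 control arrays, or 76.6%, against 13.5% of all probe sets. With the replicate block 42 were called lower and 1 higher, against backgrounds of 17.5% and 18.3%. In 45 members the 24 h array was below the control array of its own number in every one of the 3 pairs, a pattern found in 29.5% of all probe sets. HEATR1 was higher in all 3 pairs (background 33.3%) and its groups did not overlap (background 13.9%). The median over members was -0.63, -0.88 and -0.74 in pairs 1, 2 and 3.

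The count without the block rested on single arrays while the median did not. It was 1 without control replicate 2 and 1 without the 24 h replicate 1, against 0.827% and 0.766% of all probe sets. It was 4 without control replicate 3 (1.06%) and 6 without the 24 h replicate 2 (2.04%). Without the 24 h replicate 3 or without the 5 h replicate 1 it was 10 (2.49% and 2.48%). With all arrays the share over all probe sets was 4.32%, so lower calls became fewer across the whole array in these refits. The median change stayed between -0.80 and -0.62 over the 9 refits. GNL3 was the 1 member called in all 9. With the block and the 3 arrays of a number left out in turn, 34, 38 and 31 members were called lower. The shares over all probe sets were 13.7%, 13.8% and 8.95%.

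**Figure D1:**
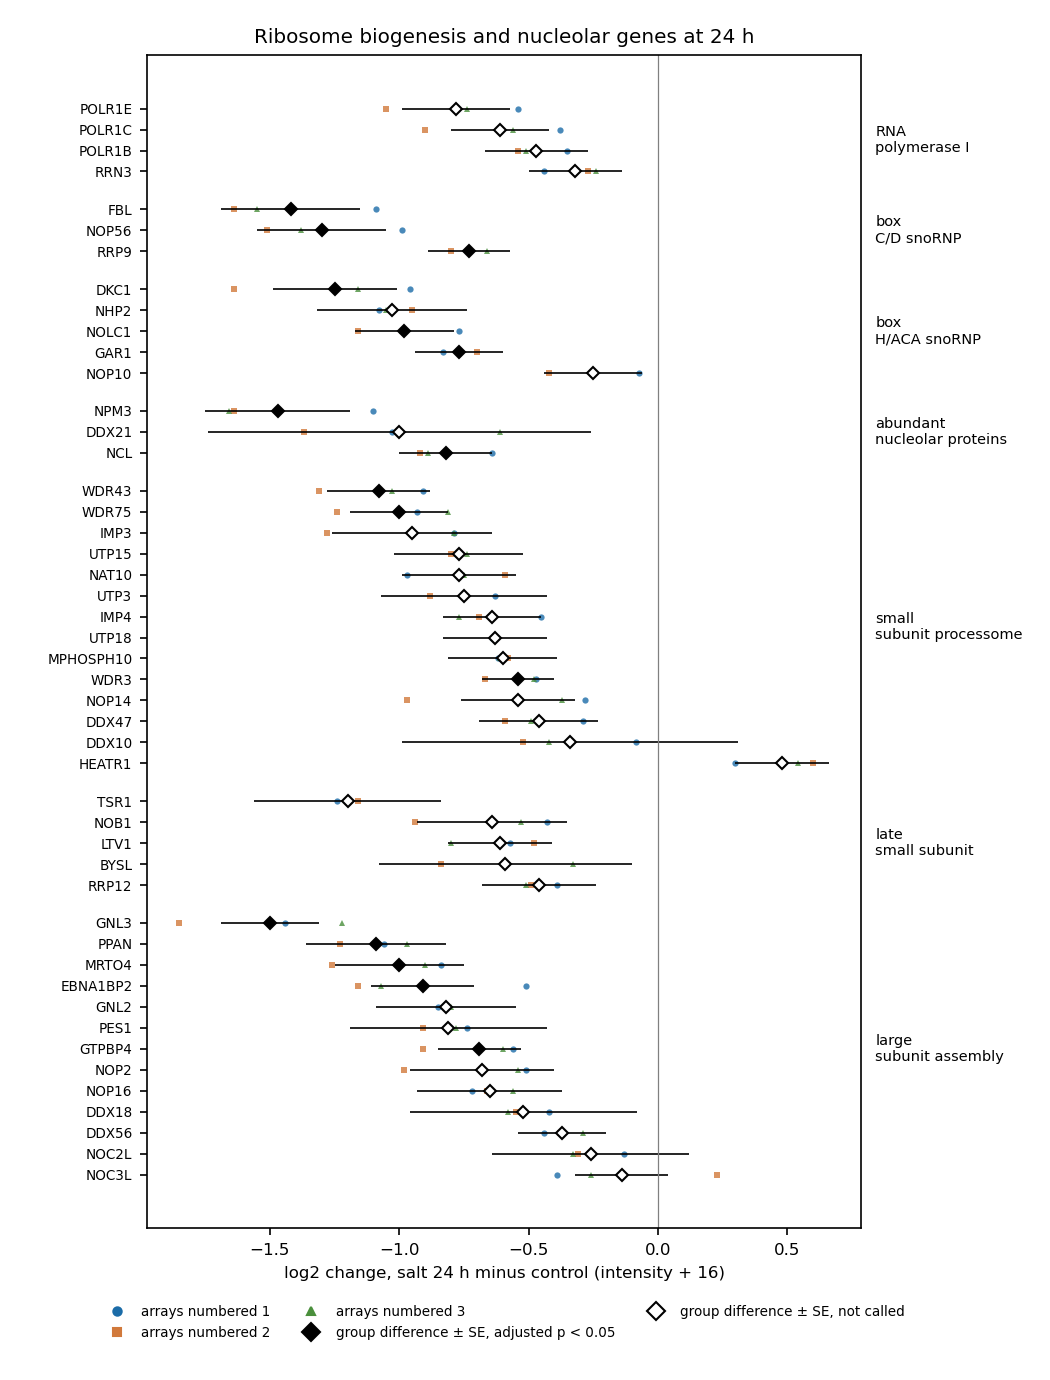
Log2 change at 24 h against control (horizontal axis) for the 47 tested members, grouped by role. Diamonds show the difference of group means with its SE, filled where limma called it, and small symbols show the difference within each replicate number. Nearly all symbols lie left of zero, with HEATR1 at 0.48 to the right.

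RNA polymerase I genes (4 tested of 5) had a median of -0.54 for the log2 change at 24 h. None passed the test without the block, and all 4 did with it. POLR1E, a polymerase I subunit, had intensities of 262, 313 and 245 in control, 242, 332 and 206 at 5 h, and 175, 143 and 140 at 24 h. Its control and 24 h arrays did not overlap, and its log2 change was -0.78 ± 0.21 (SE, 3 arrays per group), with adjusted p = 0.052, and 0.0030 with the block. POLR1C, a subunit shared with RNA polymerase III, read 338, 407 and 379 in control, 294, 404 and 267 at 5 h, and 257, 211 and 253 at 24 h. The 24 h arrays were all below control, at -0.61 ± 0.19 (adjusted p = 0.083, and 0.013 with the block). POLR1B, a large subunit of the polymerase, stood at -0.47 (called with the block), and RRN3, the factor that brings the polymerase to the ribosomal DNA promoter, at -0.32, with its control and 24 h arrays overlapping.

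Box C/D snoRNP genes, whose products guide methylation of ribosomal RNA, fell together. All 3 tested of 4 were called lower, with a median of -1.30. Fibrillarin (FBL), the methyltransferase of the particle, had intensities of 1964, 3280 and 2061 in control, 2465, 3455 and 1902 at 5 h, and 917, 1045 and 693 at 24 h. The control and 5 h arrays covered the same range and the 24 h arrays lay below both; the log2 change at 24 h was -1.42 ± 0.27 (adjusted p = 0.018). NOP56, a core protein of the same particle, read 2453, 3737 and 2520 in control, 2546, 3815 and 2085 at 5 h, and 1223, 1299 and 956 at 24 h. It too was low on the 24 h arrays alone, at -1.30 ± 0.25 (adjusted p = 0.018). RRP9, a protein of the U3 particle, fell by 0.73 (adjusted p = 0.026), from a control mean of 141 ± 8.89 (SD, n = 3) to 78.1 ± 3.23.

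Box H/ACA snoRNP genes, whose products direct pseudouridylation, had a median of -0.98 over 5 tested, of which 3 were called lower. Dyskerin (DKC1), the pseudouridine synthase, had intensities of 802, 1534 and 1045 in control, 1196, 1561 and 1057 at 5 h, and 404, 483 and 459 at 24 h. The 24 h arrays lay close together below all the others, and the log2 change was -1.25 ± 0.24 (adjusted p = 0.019). NHP2, a core protein of these particles, read 1382, 1479 and 1030 in control, 1260, 1797 and 828 at 5 h, and 645, 755 and 490 at 24 h. Its control and 24 h arrays did not overlap, at -1.03 ± 0.29 (adjusted p = 0.060, and 0.00026 with the block). The chaperone NOLC1 fell by 0.98 (adjusted p = 0.018) and GAR1 by 0.77 (adjusted p = 0.029). NOP10 was dim, with a control mean of 28.6, where the pseudocount compresses a change. It stood at -0.25 and was not called with the block either (adjusted p = 0.24).

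Among abundant nucleolar proteins, 2 of 3 tested were called lower. NPM3, a histone chaperone of the nucleoplasmin family, had intensities of 384, 745 and 595 in control, 597, 953 and 603 at 5 h, and 171, 228 and 177 at 24 h. It was lowest on all 24 h arrays and fell by 1.47 ± 0.28 on the log2 scale (adjusted p = 0.018). Nucleolin (NCL), an RNA-binding protein of the nucleolus, fell by 0.82 (adjusted p = 0.030), from 4047 ± 894 (SD, n = 3) to 2267 ± 323. The RNA helicase DDX21 had intensities of 579, 674 and 143 in control, 509, 721 and 135 at 5 h, and 275, 251 and 88.1 at 24 h. The arrays numbered 3 were low in every group, so the groups overlap although each 24 h array is below the control array of its number. Its log2 change was -1.0 ± 0.74 (adjusted p = 0.50, and 0.0016 with the block).

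The small subunit processome, the particle that forms on the new precursor, had a median log2 change of -0.64 over 14 tested of 17. WDR43, WDR75 and WDR3 were called lower, and with the block 12 were called lower and 1 higher. WDR43, of the subcomplex that joins the precursor first, had intensities of 654, 875 and 622 in control, 822, 1023 and 663 at 5 h, and 341, 343 and 297 at 24 h. On this probe set each 5 h array was above the control array of its number. The 24 h arrays were below all the others, at -1.08 ± 0.20 against control (adjusted p = 0.016). The other WDR43 probe sets stood at -0.41 and 0.12 at 5 h, with pair 3 at -0.80 and -0.22. At 24 h they stood at -1.11 and -1.08. WDR75, of the same subcomplex, read 570, 701 and 773 in control, 630, 675 and 731 at 5 h, and 291, 288 and 432 at 24 h. Its change was -1.0 ± 0.19 (adjusted p = 0.019), again with no overlap.

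IMP3, which binds the U3 RNA, had intensities of 392, 495 and 489 in control, 190, 451 and 198 at 5 h, and 220, 194 and 277 at 24 h. At 5 h the arrays numbered 1 and 3 were already as low as at 24 h while number 2 was not, and the 24 h change was -0.95 ± 0.31 (adjusted p = 0.099, and 0.015 with the block). The others in this group had smaller changes. Among them were the RNA acetyltransferase NAT10 at -0.77, IMP4, the partner of IMP3 in U3 binding, at -0.64 and the helicase DDX47 at -0.46. The helicase DDX10 stood at -0.34 and was not called with the block (adjusted p = 0.071).

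HEATR1, of the same subcomplex as WDR43, went the other way on its brightest probe set. Its intensities were 751, 545 and 772 in control, 469, 523 and 567 at 5 h, and 929, 832 and 1133 at 24 h. The 24 h arrays lay above both other groups. The log2 change was 0.48 ± 0.18 against control (adjusted p = 0.15, and 0.012 with the block) and 0.87 against 5 h (adjusted p = 0.018). The latter call was lost with each array centred on its median, and without the 5 h replicate 1, the 24 h replicate 1 or the 24 h replicate 3. A second HEATR1 probe set read 372, 443 and 411 in control, 349, 420 and 401 at 5 h, and 240, 282 and 282 at 24 h. It fell by 0.58 ± 0.15 at 24 h (adjusted p = 0.049), so these probe sets disagree in direction. Another HEATR1 probe set stood at -0.41 (adjusted p = 0.50).

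Late small subunit factors, which act on the particle on its way to the cytoplasm, had a median of -0.61. None of the 5 was called without the block and all 5 were called lower with it. TSR1, a GTPase-like assembly factor, had intensities of 196, 217 and 129 in control, 171, 270 and 94.3 at 5 h, and 73.6, 88.1 and 47.6 at 24 h. The arrays numbered 3 were the lowest in each group, yet control and 24 h did not overlap, at -1.20 ± 0.36 (adjusted p = 0.078, and 0.00040 with the block). NOB1, the nuclease that makes the last cut of the small subunit RNA, read 570, 782 and 465 in control, 471, 671 and 316 at 5 h, and 418, 399 and 317 at 24 h. Its 24 h arrays were below control and within the range at 5 h, at -0.64 ± 0.29 against control (adjusted p = 0.23, and 0.0069 with the block). LTV1 stood at -0.61, BYSL at -0.59 and RRP12, which takes part in export, at -0.46.

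Large subunit assembly genes had a median of -0.69 over 13 tested of 20, with 5 called lower, and 11 with the block. GNL3 (nucleostemin), a nucleolar GTPase, had intensities of 522, 604 and 547 in control, 510, 635 and 457 at 5 h, and 182, 156 and 226 at 24 h. Control and 5 h arrays were alike and the 24 h arrays far below, at -1.50 ± 0.19 (adjusted p = 0.0050), the largest change in size among the members. PPAN, a factor of early large subunit assembly, read 139, 204 and 135 in control, 108, 190 and 93.9 at 5 h, and 58.2, 77.4 and 61.3 at 24 h. Its 24 h arrays were below all the others, at -1.09 ± 0.27 (adjusted p = 0.042).

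MRTO4, a relative of a ribosomal stalk protein that holds its place during assembly, had intensities of 789, 902 and 614 in control, 731, 958 and 491 at 5 h, and 435, 368 and 322 at 24 h. It fell by 1.0 ± 0.25 with no overlap against control (adjusted p = 0.046). EBNA1BP2 fell by 0.91 and the GTPase GTPBP4 by 0.69. GNL2 (-0.82), PES1 (-0.81), the methyltransferase NOP2 (-0.68), NOP16 (-0.65), DDX18 (-0.52) and DDX56 (-0.37) were called lower with the block alone. NOC2L stood at -0.26 and NOC3L at -0.14, the smallest change in size, and neither was called with the block. NOC3L was near the floor of the array, at 28.6, 26.6 and 30.0 in control, 13.1, 24.3 and 18.1 at 5 h, and 18, 34.0 and 22.4 at 24 h, with overlapping control and 24 h arrays.

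**Figure D2:**
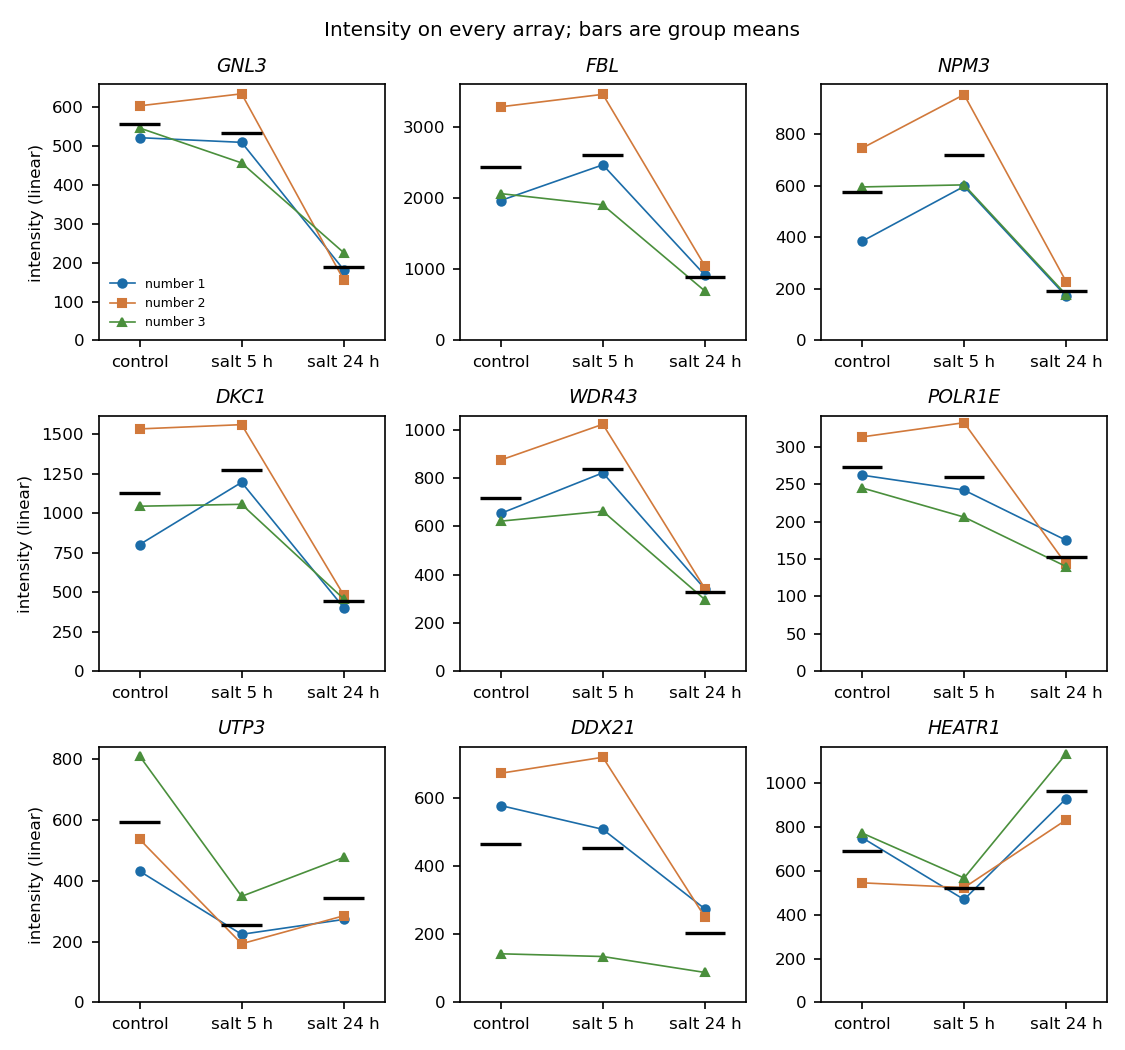
Intensity on a linear scale (vertical axis, from 0) on each of the 9 arrays for 9 members, with lines joining arrays of 1 replicate number and black bars at the group means. GNL3, FBL, NPM3, DKC1, WDR43 and POLR1E are low at 24 h; UTP3 is lowest at 5 h; DDX21 is low in every group on the arrays numbered 3; HEATR1 is highest at 24 h.

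At 5 h the genes of ribosome production were near control. By limma 0 of 47 members were called lower and 0 higher, against 0.25% and 0.233% of all probe sets. At an unadjusted p under 0.05 there were 2 lower and 0 higher. The share of all probe sets at that unadjusted threshold is not given here. The group mean was below control in 31, against 56.1% of all probe sets. The groups did not overlap for 2, both lower (UTP3 and NOC3L), against 6.6%, and for none higher, against 4.04%. The median log2 change was -0.072, against -0.030 over all probe sets, and it was -0.11, 0.080 and -0.25 in pairs 1, 2 and 3. Without the 5 h replicate 2 it was -0.31, so this median depends on that array, and it was 0.013 with each array centred on its median. With the block 1 member was called lower, against 3.41%, and 0 higher, against 2.45%.

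That member was UTP3, a processome protein singled out here after its values were seen. Its intensities were 432, 537 and 811 in control, 224, 193 and 349 at 5 h, and 273, 285 and 477 at 24 h. All 5 h arrays lay below all control arrays, and each 24 h array was above the 5 h array of its number. The log2 change was -1.16 at 5 h (adjusted p = 0.24, and 0.00061 with the block), and -0.75 at 24 h against control (adjusted p = 0.19, and 0.0011 with the block). From 5 h to 24 h it was 0.41 (adjusted p = 0.46, and 0.018 with the block).

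Between 5 h and 24 h, 14 members were called lower, or 29.8%, against 6.15% of all probe sets. The control arrays do not enter this difference but do enter its estimate of spread, and in a fit of the 6 salt arrays alone 13 were called lower, with 4.55% of all probe sets. HEATR1 alone was called higher, against 8.01%. Median centring turned the background to 1608 lower and 806 higher, in place of 1108 and 1443. The group mean was lower for 43 members, against 44.3% of all probe sets, and 26 had 24 h arrays all below the 5 h arrays, against 14.3%. In 40 every pair was lower, against 28.7%. The median log2 change was -0.66, against 0.057 over all probe sets, and -0.60, -0.94 and -0.43 in pairs 1, 2 and 3. It was -0.42 without the 5 h replicate 2. With the block 34 members were called lower, against 19.6%, and HEATR1 and UTP3 higher, against 24.2%. The number called lower was 7 without the 24 h replicate 1 and 8 without the 5 h replicate 1, against 2.17% and 2.05% of all probe sets. It was 23 with each array centred on its median, against 8.93%. FBL, DKC1, NOLC1, NPM3, WDR43 and GNL3 were called in all 9 refits that left out an array. NPM3 had the largest of these changes, at -1.79 (adjusted p = 0.0061), followed by FBL at -1.52 and DKC1 at -1.46. Of the 47 members, 27 had a mean below control at 5 h and a lower one still at 24 h, 16 had a mean above control at 5 h and below it at 24 h, and 4 were below control at 5 h and higher at 24 h than at 5 h (NOP10, HEATR1, UTP3 and NOC3L).

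**Figure D3:**
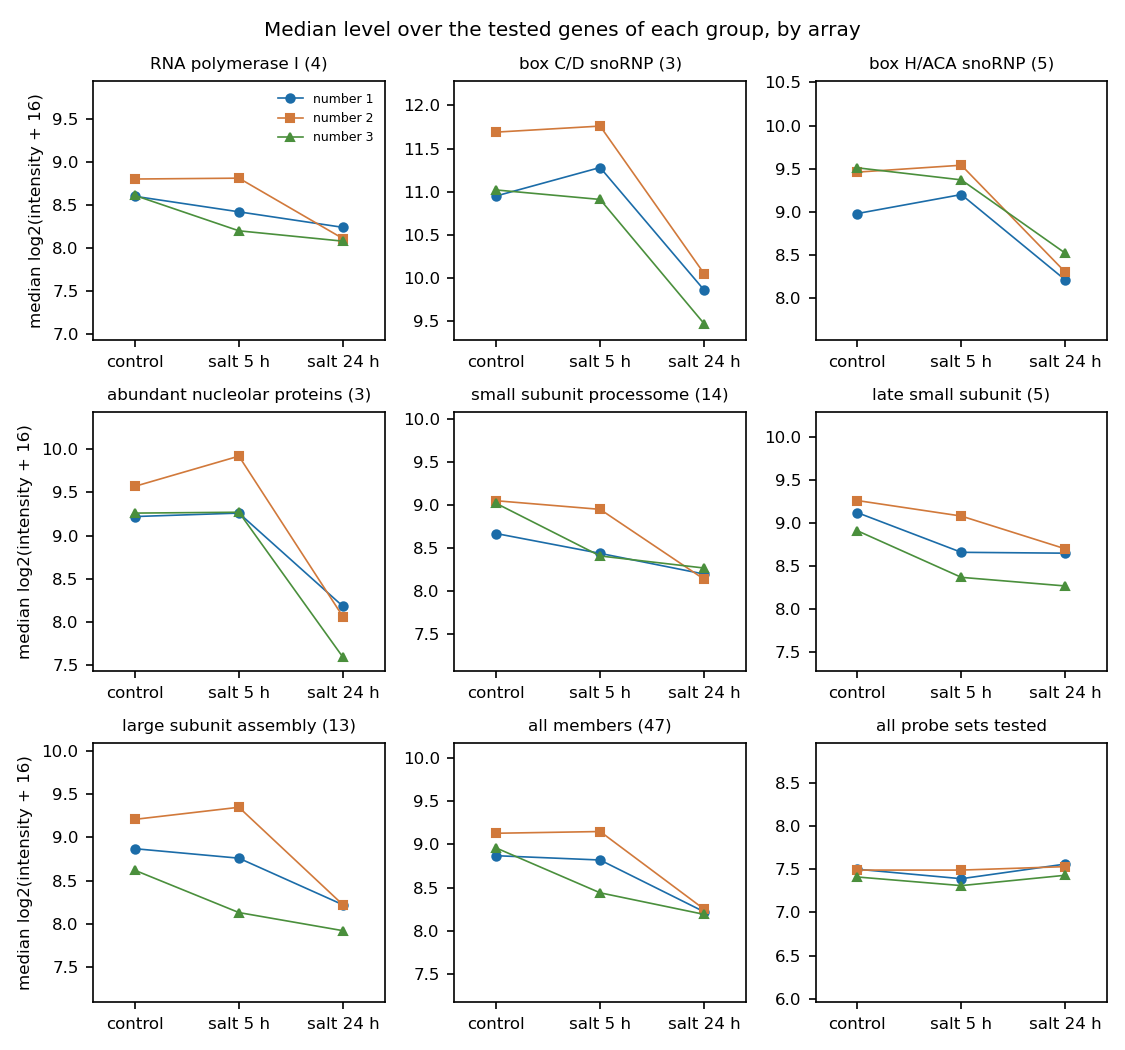
Median log2(intensity + 16) over the tested members of each role (vertical axis, each panel spanning 3 log2 units) on every array, with lines joining arrays of 1 replicate number. The median over all members is 8.19 to 8.25 at 24 h against 8.87 to 9.13 in control, and 8.44 to 9.15 at 5 h, while the median of all probe sets tested stays between 7.31 and 7.56.

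By role, the box C/D genes had a median log2 change of -1.23 from 5 h to 24 h and of -0.063 from control to 5 h. Abundant nucleolar proteins stood at -0.98 and 0.16, and box H/ACA genes at -0.97 and -0.055. The late small subunit genes, at -0.66 and -0.093, and the processome, at -0.48 and -0.14, had smaller late changes. RNA polymerase I genes were at -0.33 and -0.14 and large subunit genes at -0.61 and -0.058. These are descriptions of 3 to 14 genes each, and the differences between roles were not tested.

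Other probe sets for the same genes gave a further reading of the same arrays. Of the members, 16 had a second tested probe set or more, 21 in all. At 24 h against control all 21 had a lower group mean, against 47.2% of all probe sets, with a median of -0.71. Of these, 8 were called lower, against 4.32%. With the block 15 were called lower, against 17.5%. None was called higher in either fit, against 4.28% and 18.3%. The 3 other POLR1E probe sets fell by 0.90, 0.96 and 0.88 (adjusted p = 0.030, 0.027 and 0.018), where the brightest one missed the threshold. The second probe set of LTV1 also passed, at -0.59 (adjusted p = 0.045). HEATR1 was the 1 gene of the 16 whose brightest and other probe sets had opposite signs at 24 h.

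**Figure D4:**
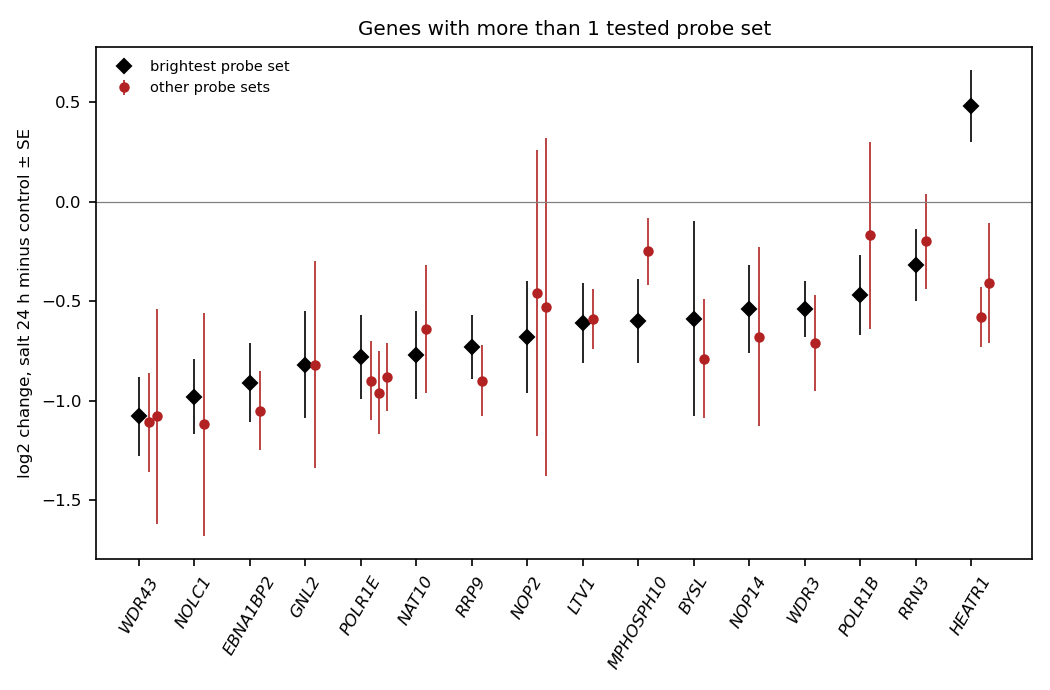
Log2 change at 24 h against control with its SE (vertical axis) for the 16 members with more than 1 tested probe set. Black diamonds are the brightest probe set and red points the other 21, all of which lie below zero; the brightest HEATR1 probe set, at 0.48, lies above.

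Some members differed more between replicate numbers than between conditions. Besides DDX21, the helicase DDX10 had intensities of 111, 158 and 37.4 in control, 169, 207 and 43.1 at 5 h, and 103, 105 and 23.9 at 24 h. Its arrays numbered 3 were low in each group, as were those of BYSL (248, 332 and 123 in control), DDX18 (263, 370 and 178) and PES1 (342, 427 and 207). For these 5 genes the SE without the block was 0.38 to 0.74, and their control and 24 h arrays overlapped. Calls without the block came mostly from probe sets with strong signal: of the 24 members brightest in control 14 were called lower, and of the other 23, 2 were. With the block it was 23 and 19.

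Further genes of the pathway, from a list that holds no members, stood lower too. This list was also chosen with earlier results of these data known. Of 68 tested, 11 were called lower at 24 h (16.2%, against the background of 4.32%) and 0 higher (against 4.28%), with a median of -0.36. With the block 35 were lower (51.5%) and 4 higher, against 17.5% and 18.3% of all probe sets. NIFK, a nucleolar partner of the Ki-67 protein, fell by 1.28 (adjusted p = 0.015), from 408, 547 and 630 in control to 169, 179 and 280 at 24 h. RRP15 fell by 1.27, the snoRNP assembly ATPase RUVBL1 by 0.82 and PNO1, which binds NOB1, by 0.74 (adjusted p = 0.017 each). Between 5 h and 24 h 12 were lower, RSL1D1 at -1.27 among them, and 0 higher, against 6.15% and 8.01% of all probe sets. The RNA polymerase I subunit POLR1F read 455, 495 and 685 in control, 866, 685 and 1039 at 5 h, and 232, 253 and 333 at 24 h. Each of its 5 h arrays was above, and each 24 h array below, the control array of its number. Its change was 0.65 at 5 h (adjusted p = 0.45, and 0.011 with the block) and -0.95 at 24 h (adjusted p = 0.036). The 4 genes higher with the block, picked out after their values were seen, were the polymerase subunit POLR1H (0.44), NOP53 (0.41), and SBDS (0.35) and NMD3 (0.30), which serve the large subunit at and after export.

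Of 11 nucleases and cofactors that trim ribosomal RNA, 1 was called lower at 24 h (9.09%, against 4.32% of all probe sets). It was the exosome cofactor MPHOSPH6 at -1.20 (adjusted p = 0.019). With the block 5 were lower (45.5%, against 17.5%). By contrast 0 of 68 genes with the symbols of cytosolic ribosomal proteins were called in any of the 3 comparisons without the block. At 24 h against control there were 0 lower and 1 higher at an unadjusted p under 0.05. With the block RPL7L1 (-0.38) was lower and RPL39 (0.21) higher, against 17.5% and 18.3% of all probe sets. RPL7L1 is an RPL7-like gene that the list took in by its symbol, not a standard ribosomal protein gene. At an unadjusted p there were 0 and 0 at 5 h, and 2 lower and 1 higher between 5 h and 24 h. The share of all probe sets at an unadjusted p is not given here. With the block there were 0 and 0 at 5 h, against 3.41% and 2.45% of all probe sets. Between 5 h and 24 h the block gave 3 lower and 0 higher, against 19.6% and 24.2%. The median log2 change at 24 h was 0.024. Most of these probe sets read near the top of the scale, with a median control mean of 9074 where the brightest probe set of an array read 13521.7 to 15435.1.

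MYC, a transcription factor known to act on genes of ribosome production, had intensities of 734, 685 and 911 in control, 170, 143 and 167 at 5 h, and 290, 230 and 227 at 24 h. It was low at 5 h, when the members were near control, and its log2 change was -2.16 at 5 h and -1.58 at 24 h. Both changes were called lower, with and without the block. From 5 h to 24 h MYC stood at 0.58, called higher with the block alone, where the median of the members was -0.66. Any link between MYC and the members was not tested.

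Genes of cell division moved with the members. All 11 measured of a proliferation list had a lower group mean at 24 h, against 47.2% of all probe sets. Of them 7 were called lower (63.6%), against 4.32%. Their summed intensity was 17993 to 27833 in control, 20849 to 27686 at 5 h and 7518 to 12802 at 24 h. In these bulk samples fewer cells of a type and less RNA per cell cannot be told apart. The 9 measured nucleus pulposus markers summed to 8299 to 10363 in control and 4987 to 8589 at 24 h. Of the 6 tested, BNIP3 (-1.64, adjusted p = 0.0058) and CXCL12 (-0.74, adjusted p = 0.021) were called lower with the members. ACAN, which encodes the cartilage proteoglycan aggrecan, stood at 1.35 (adjusted p = 0.19, and 0.00041 with the block), and COL2A1, KRT18 and SLC2A1 were not called in either fit. Marker sums of other cell types were 166 to 223 in control and 173 to 210 at 24 h for 6 endothelial genes. They were 186 to 203 and 387 to 429 for 6 leukocyte genes, of which CD14 alone was called (1.43), and 911 to 1076 and 2136 to 3500 for 5 muscle genes, of which CKM alone was called (1.99). CKM was also high on 2 of the 3 arrays at 5 h, when the muscle sum was 1159 to 3392. Sums for 6 fibroblast genes, of which COL12A1 and THY1 were called higher, were 22893 to 31773 and 23602 to 28997, and for 3 erythroid genes 60 to 88 and 48 to 71. A lower group mean at 24 h was found in 0 of 5 tested leukocyte genes and 1 of 3 tested muscle genes, against 47.2% of all probe sets. PTPRC, ITGAM, MYH1 and MYOD1, picked out of these lists, were near the floor at 24 h. Their mean intensities were 26.7, 2.53, 8.53 and 1.43. As a measure of RNA integrity, the actin probe sets of the 3-prime end exceeded those of the 5-prime end by 2.69 ± 0.18 (log2) in control and 2.99 ± 0.28 at 24 h (SD, n = 3). The same difference for GAPDH was -0.085 ± 0.093 in control and 0.025 ± 0.016 at 24 h, near 0 in both groups. The part of these genes and of RNA integrity in the members' change was not tested.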

How the data were processed

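The authors deposited 1 intensity per probe set and array on a linear scale, summarised with PLIER (Affymetrix Expression Console) according to the submitters' processing notes. Its version, its settings and any scaling between arrays were not given in the sources used here. Of 24016 probe sets outside the manufacturer's controls, 13292 carried 1 gene symbol, 86 several and 10638 were not listed with a gene in the platform annotation. Sequences and genome positions were not used here.

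Values were transformed as log2(intensity + 16) with no further normalization, and probe sets with a mean under the 25th percentile (log2 value 5.05) were left out, which left 18012. This compresses changes of dim genes. Group means of all 9 arrays were fitted with limma 3.58.1 in R 4.3.3 (eBayes with intensity trend), and p-values were adjusted by Benjamini-Hochberg over all probe sets of a comparison. The scripts were checked on simulated data. The number of arrays limits the precision.

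Each label carries a replicate number from 1 to 3. All 9 same-numbered pairs of arrays correlated at 0.564 or more in their deviations from the group means, and the 18 other pairs at -0.78 to 0.545. The numbers were therefore taken to pair the arrays and were used as a block in a second fit. The value of 0.545 joined numbers 1 and 2, so the pairing is less clear between these than for number 3.

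Members and lists were chosen with earlier results of these data known. Values on every array are given for the 3 members with the largest 24 h change in a role (2 in roles of 5 or fewer), any called at 5 h, any opposite to the median by over 0.2, the smallest change, up to 4 called pathway genes with the lowest adjusted p, and MYC. UTP3, DDX10 and others named outside this rule were chosen after their values were seen. Alternatives were other pseudocounts, filters and scalings, 6 arrays, the block, means over probe sets and arrays left out.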

Additional observations from a re-analysis of the deposited data

How the results depend on the processing

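The median log2 change of the members kept its sign at 24 h against control and against 5 h under every alternative run. With pseudocounts of 1 and 64, no filter, a filter at the 50th percentile, quantile normalization, the 6 arrays compared and the mean of a gene's probe sets, each count of members called lower stayed within 1.5 times the one reported. With each array centred on its median, 23 members were lower and 0 higher at 24 h than at 5 h; 0 were higher there with the mean of probe sets. With the replicate block, 42 were lower and 1 higher at 24 h than in control, 34 lower and 2 higher than at 5 h, and 1 was lower at 5 h than in control; every call made without the block at 24 h was kept. The following were chosen after seeing the data. Without the 3 arrays numbered 3, 23 members were lower at 24 h than at 5 h, against 8.19% of all probe sets. The fit with the block was repeated with the arrays numbered 1, 2 or 3 left out. Then 34, 38 and 31 members were lower at 24 h than in control, against 13.7%, 13.8% and 8.95% of all probe sets. Those higher numbered 1, 1 and 0, against 13.5%, 14.9% and 9.6%. Lower at 24 h than at 5 h were 28, 27 and 30, against 14.2%, 16.2% and 13% of all probe sets. Those higher numbered 2, 1 and 1, against 16%, 22.5% and 16.2%. At 5 h 1, 5 and 1 were lower than in control, against 0.75%, 6.38% and 0.5% of all probe sets. With 1 array left out, members lower at 24 h numbered 1 to 20 against control and 7 to 19 against 5 h, those higher than at 5 h 0 to 1, and the medians ran from -0.80 to -0.62 and from -0.77 to -0.42; at 5 h against control, 0 were called and the median ran from -0.31 to 0.061. Without 1 array its group holds 2 arrays. Members lower at 24 h than in control then numbered 15 without control replicate 1 and 1 without control replicate 2. The cause of these shifts was not tested. Over the genes named one by one, 1584 results kept their side of the threshold, 114 passed it newly and 81 lost it, and none reversed with a call. The control label gives no time, and 3 arrays a group limit the precision.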
